A study of Mus musculus with 4 samples.

Results

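The cells described here are the mitochondria-bearing cells of a mouse mammary tumor: 124 droplet barcodes of the primary tumor library in which the 13 mitochondrially encoded genes (symbols starting with mt-) gave 1% to 20% of the unique molecular identifiers (UMIs, tags that each mark 1 captured RNA molecule). They were chosen by that share alone, among barcodes with at least 534 UMIs and 250 detected genes. They are 124 of the 425 cells of the tumor and of the 1905 cells called in 4 libraries, and they were compared with the 301 mitochondria-poor tumor cells, which met the same minima with a share under 1%. Because measured values chose the members, the mt- genes were removed from every value below, and every other gene is given as a description of these cells, without a test.

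The tumor came from FvB mice that carry the MMTV-HER2/Neu transgene, in which a mouse mammary tumor virus promoter drives the HER2 receptor gene in mammary epithelium. Per the labels the mice were over 20 weeks old and bore primary tumors. The other libraries were an early lesion (mammary gland at 14 to 18 weeks, no palpable tumor), early lung (14 to 18 weeks) and late lung (over 20 weeks, with primary tumors) from the same strain and transgene. CD45- HER2+ cells were sorted and captured with the 10x Chromium 3' v2 kit, 1 library per group, and the number of mice behind each library is not given in the sources used here. With 1 library per group, intervals below are exact 95% intervals that cover counting error only. Intervals of ratios treat every UMI as an independent draw, and they understate the error of genes whose counts lie in a handful of cells. Intervals of shares of cells treat every cell as an independent draw, although cells of 1 library are not replicates.

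Messenger RNAs for secreted and membrane proteins are translated on the endoplasmic reticulum (ER), where a hydrophobic stretch of the growing protein docks the ribosome on the membrane. Messenger RNAs for cytosolic, nuclear and most imported mitochondrial proteins are translated on free ribosomes, while the mt- messengers are made and kept inside mitochondria. A few long noncoding RNAs, among them Malat1, Neat1 and Xist, stay in the nucleus.

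The grouping of genes below rests on such hydrophobic stretches, so the first 35 codons of the reading frame are shown for some genes. Of these, 9 carry such a stretch near the start of the protein and 1 does not. Some of the 9 differed widely between the classes, while others, such as Wfdc18 and Csn1s2a, hardly differed. Capitals mark the 10 codons of highest mean Kyte-Doolittle hydropathy within residues 2 to 35, where that mean was at least 2. Sequences are from GENCODE mouse release M21 on mm10.
Aqp5: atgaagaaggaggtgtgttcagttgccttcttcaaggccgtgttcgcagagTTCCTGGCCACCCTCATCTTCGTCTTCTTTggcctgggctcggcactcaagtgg
Erbb3: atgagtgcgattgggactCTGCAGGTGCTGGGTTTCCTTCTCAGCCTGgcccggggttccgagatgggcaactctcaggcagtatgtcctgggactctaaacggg
Trf: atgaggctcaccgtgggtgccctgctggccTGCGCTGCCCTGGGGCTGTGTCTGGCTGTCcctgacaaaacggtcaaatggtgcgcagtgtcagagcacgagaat
Col9a1: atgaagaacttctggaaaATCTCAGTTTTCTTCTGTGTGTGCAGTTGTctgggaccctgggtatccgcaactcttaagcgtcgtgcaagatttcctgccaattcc
Car6: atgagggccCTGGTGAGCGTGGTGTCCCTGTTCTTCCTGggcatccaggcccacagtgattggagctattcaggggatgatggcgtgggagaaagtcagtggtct
Lcn2: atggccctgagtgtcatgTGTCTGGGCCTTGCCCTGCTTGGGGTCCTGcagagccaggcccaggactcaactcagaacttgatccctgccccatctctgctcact
Csn3: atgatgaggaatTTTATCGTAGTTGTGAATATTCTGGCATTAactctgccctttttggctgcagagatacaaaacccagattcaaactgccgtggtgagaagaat
Csn1s2a: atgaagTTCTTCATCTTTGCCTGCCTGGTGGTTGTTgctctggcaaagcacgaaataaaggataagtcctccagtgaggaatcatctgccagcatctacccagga
Wfdc18: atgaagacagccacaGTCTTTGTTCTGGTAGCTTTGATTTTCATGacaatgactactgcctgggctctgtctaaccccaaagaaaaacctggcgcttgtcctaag
Rplp0: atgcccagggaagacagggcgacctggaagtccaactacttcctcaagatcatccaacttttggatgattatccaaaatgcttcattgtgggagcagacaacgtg
The genes lie at chr15:99590782-99594829 (+), chr10:128567523-128589652 (-), chr9:103204001-103230444 (-), chr1:24177610-24252684 (+), chr4:150187015-150201332 (-), chr2:32384633-32388252 (-), chr5:87925579-87932665 (+), chr5:87774567-87788797 (+), chr11:83709015-83711348 (+) and chr5:115559467-115563727 (+). Aqp5 (a water channel, 265 residues) and Erbb3 (a HER-family receptor, 1339 residues) also hold a 19-residue window of mean hydropathy of at least 1.6 beyond residue 35 and were put in a membrane-type class. Trf (transferrin, 697 residues), Col9a1 (a collagen IX chain, 921), Car6 (secreted carbonic anhydrase, 317), Lcn2 (lipocalin 2, 200), Csn3 (kappa-casein, 181), Csn1s2a (an alpha-S2 casein, 184) and Wfdc18 (a small whey-type protein, 74) have the early stretch without such a window and were put in a secreted-type class. Rplp0, a ribosomal protein of 317 residues, has neither.

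The mitochondria-bearing cells were of 2 very different sizes. In 17 of them the total was 14167 to 125434 UMIs with a median of 6511 detected genes, and these large-count cells held 88.6% of all UMIs of the class. The other 107 held 535 to 3582 UMIs, with a median of 925. Among the mitochondria-poor cells 1 of 301 exceeded 10000 UMIs, with 12269, and the median was 2021. The mt- share had a median of 4.76% in the large-count cells, 7.38% in the small-count cells and 0.364% in the mitochondria-poor cells. Just below the lower bound stood a cell at 0.999% and just above it one at 1.03%, and at the upper bound the nearest cells were at 19.8% and 20.1%. A further 57 barcodes passed the minima with over 20% and are given below only as an outer band.

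Because a sum over the class is mostly a sum over 17 cells, 3 readings are given for each gene. The sum reading adds the counts of all cells of a class and gives them as CPM (counts per 1000000 counts of genes other than mt-), over 1045428 UMIs of mitochondria-bearing and 708709 of mitochondria-poor cells. The small-count reading leaves out cells over 10000 UMIs and rests on 115895 and 696486 UMIs. The equal-weight reading averages each cell's own CPM. A gene was called in the first 2 readings when it differed at least 2-fold and its counting interval excluded a ratio of 1. No barcode of the 425 tumor cells was a called cell of another library. Over barcodes with 1 to 50 UMIs, taken as free RNA, mt- genes gave 18.1% of the tumor's UMIs, so free RNA holds more of them than most of the cells do, and its part in the results below was not tested.

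The cells carried luminal mammary markers. Of 15 luminal markers 13 were detected in the large-count cells and in the small-count cells, summing to 64304 and 64049 CPM, against 14 detected and 51378 CPM in the mitochondria-poor cells. Most of the large-count sum came from the milk genes Wfdc18 (37505 CPM) and Csn3 (20941 CPM), and free RNA held the list at 50738 CPM. Krt19 and Pgr were at 0 in the class. In the same order of cells, Epcam stood at 2748, 2623 and 380 CPM, Krt8 at 549, 742 and 549 CPM, and Elf5 at 144, 198 and 320 CPM. Fibroblast, lymphocyte and macrophage markers summed to 3.23, 1.08 and 4.30 CPM in the large-count cells and were at 0 in the small-count cells. Ptprc, which encodes the CD45 antigen sorted against, was at 0 in both classes. Basal myoepithelial markers summed to 22.6 and 25.9 CPM, with Krt5, Krt14 and Krt17 at 0. The genes that mark the class, Aqp5, Car6, Col9a1 and Col11a1, are also known from salivary glands and cartilage, but most defining genes of those tissues were at 0. Of 9 salivary acinar markers Dcpp1, Dcpp2, Dcpp3, Smr3a, Amy1, Bpifa2 and Pip were at 0 in the class, and Prol1 and Bhlha15 were detected, for summed levels of 86.1 and 164 CPM. Of 6 chondrocyte markers Col2a1, Acan, Matn3 and Hapln1 were at 0 and Comp and Sox9 were detected, for 185 and 242 CPM.

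Per cell, RNA for membrane and secreted proteins took a larger part of the UMIs in mitochondria-bearing cells. Membrane-type genes gave a median of 18.3% of a large-count cell's UMIs (range 14.4% to 22.1%), 17.0% of a small-count cell's (7.76% to 38.0%) and 9.90% of a mitochondria-poor cell's (6.93% to 21.7%). All 17 large-count cells and 72 of the 107 small-count cells lay above the 95th percentile of the mitochondria-poor cells, 14.1%, so about 1 small-count member in 3 had a membrane share within the usual range of mitochondria-poor cells. Secreted-type genes gave medians of 17.2%, 16.4% and 9.79% in the same order, but mitochondria-poor cells varied widely in them, and 3 of the 17 and 34 of the 107 lay above their 95th percentile of 20.8%. Once the 32 milk and other abundant secreted genes were left out the medians were 5.71%, 5.58% and 4.02%, with 9 of 17 and 52 of 107 above the 95th percentile of 5.64%. Genes of neither class had medians of 59.4%, 62.8% and 75.8%. These shares use every gene with a reading frame and no filter on low counts, and the early lesion and free RNA are set beside them below.

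**Figure D1:**
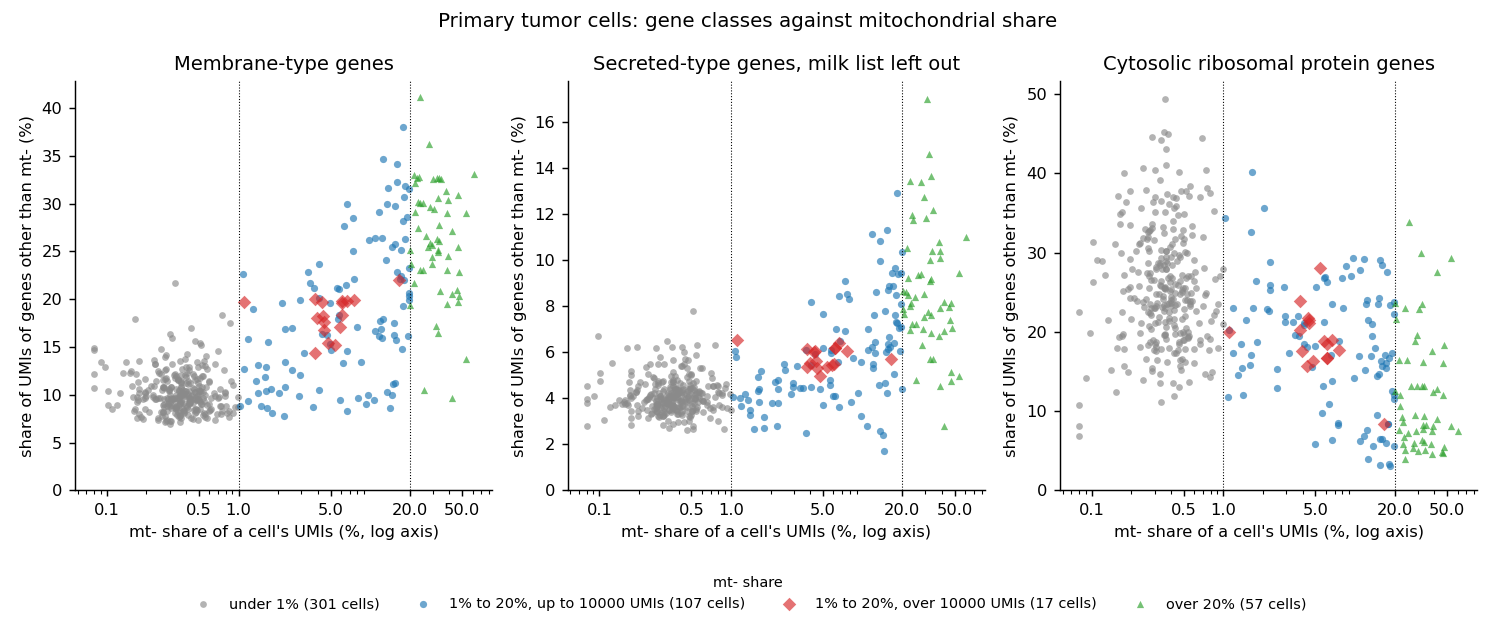
Each point is 1 primary tumor barcode; the x axis is the percentage of its UMIs from mt- genes (log axis; values under 0.08% drawn at 0.08%) and the y axes are the percentages of its other UMIs from membrane-type genes, secreted-type genes without the milk list, and cytosolic ribosomal protein genes. Dotted lines mark 1% and 20%; the 17 cells over 10000 UMIs (diamonds) lie between 14.4% and 22.1% in the membrane panel, while cells under 1% have a median of 9.90%.

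Below an mt- share of 1% the membrane-type share was level from band to band, and above it the share was higher in each further band. Under 1%, cells with under 0.2%, 0.2% to 0.5% and 0.5% to 1% had median membrane-type shares of 10.2%, 9.85% and 9.75%. Above 1%, cells with 1% to 5%, 5% to 10%, 10% to 20% and over 20% had 15.3%, 18.3%, 22.2% and 26.0%. Without the cells over 10000 UMIs the bands from 1% to 20% had 13.0%, 17.9% and 22.3%. Free RNA, at 14.6%, lay between the 2 sides of the boundary. Ribosomal protein genes went the other way, from 25.2%, 25.5% and 23.8% below the boundary to 20.3%, 18.8%, 15.7% and 9.44% above it.

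Single genes stepped at the same boundary but did not follow the bands evenly on either side of it. Aqp5, averaged over cells, stood at 858, 858 and 887 CPM in the 3 bands under 1%, then at 3402, 4076, 11061 and 9600.5 CPM. Erbb3 stood at 0, 0.956 and 5.41 CPM under 1%, then at 103, 125, 82.2 and 222 CPM. Hspa5, the main ER chaperone (BiP), stood at 128, 51.8 and 76.0 CPM, then at 365, 754, 777 and 1509 CPM. Uqcrb, a nuclear-encoded subunit of the respiratory chain, was at 1244, 1388 and 1356 CPM under 1% and at 724, 1058, 503 and 491 CPM above it, so this mitochondrial protein's messenger did not follow the mt- RNAs.

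**Figure D2:**
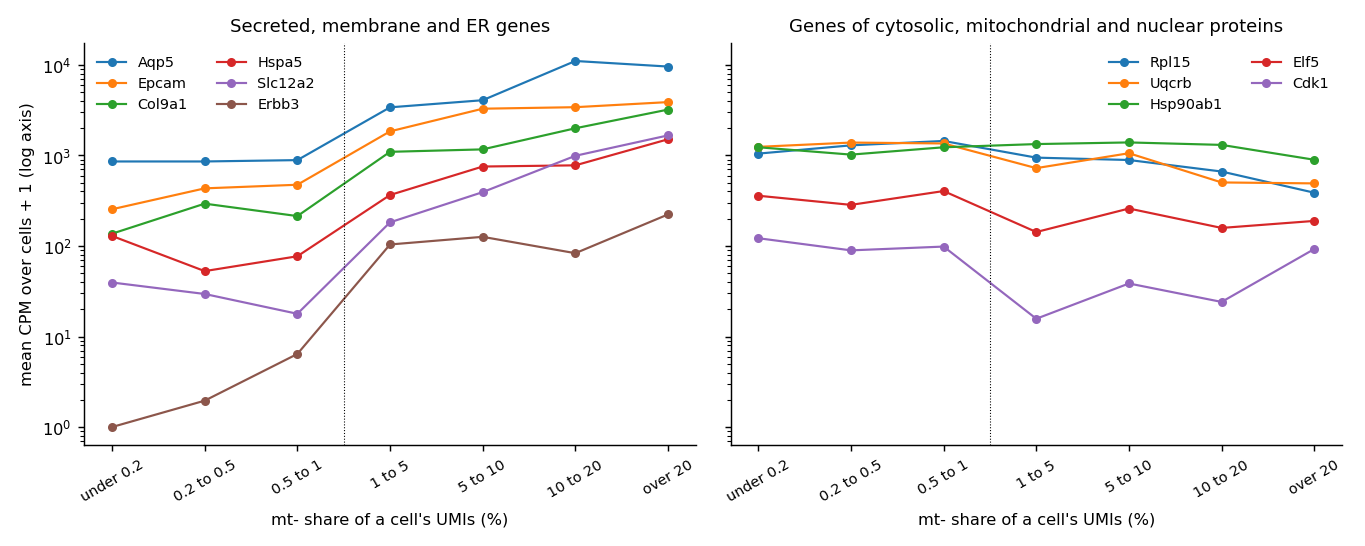
Mean CPM over cells, plus 1 (log axis), of single genes in bands of the mt- share of a tumor cell's UMIs (x axis, in %; 39, 193, 69, 49, 28, 47 and 57 cells from left to right); the dotted line is the 1% boundary. Aqp5 steps from 887 to 3402 CPM across the boundary, while Uqcrb goes from 1356 to 724 CPM.

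Over 7448 genes with at least 20 counts over the 2 classes together and at least 10 cells with a UMI, 2028 (27.2%) were called higher and 379 (5.09%) lower in the sum reading. In the small-count reading 405 of 4237 genes (9.56%) were called higher and 181 (4.27%) lower. Counts of called members in the gene lists below are to be read against these shares. With every cell weighted the same, 25% of the 7448 were at least 2-fold higher and 14.4% at least 2-fold lower. Higher genes were 84.3% of those called in the sum reading, 69.1% in the small-count reading, 63.4% with equal weights and 96.7% under median-of-ratios scaling, so the balance of higher and lower genes depends on the reading. That scaling moved the median log2 ratio of all genes from 0.13 to 0.47, and the ratios below are to be read against a shift of that size. Over the genes tested the median was 0.13, -0.11 and 0.04 in the sum, small-count and equal-weight readings. At least 2-fold to the same side in all 3 readings were 1452 genes (19.5%) higher and 126 (1.69%) lower. No count minimum was set there for the small-count reading, in which 4237 genes passed one. Its totals are unlike, so adding 0.5 counts to each sum raises the ratios of genes with few counts. Ptprc, at 0 in both classes, has a small-count log2 ratio of 2.59. With counts added in proportion to the totals, 1337 genes (18%) were higher and 149 (2%) lower. Of the 2028 genes called higher, 1723 (85.0%) had a free RNA level between those of the mitochondria-poor and the mitochondria-bearing cells, as had 74.9% of the 379 called lower and 53.5% of all genes tested. A wide gap between the classes by itself leaves more room for a level between them, so these shares are a description. Free RNA held Aqp5 at 2939 CPM, Trf at 16705 CPM, Epcam at 1130 CPM and Hspa5 at 382 CPM, each between the classes.

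By protein class, 971 of 1782 membrane-type genes tested were called higher and 28 lower in the sum reading, with a median log2 ratio of 1.35. Of 495 secreted-type genes 249 were higher and 14 lower (median 1.10), and of 5007 genes of neither class 783 were higher and 328 lower (median -0.14, and 0.20 under median-of-ratios scaling). The count minimum lets a gene in through the class where it is high, so the same was asked of 3662 genes chosen by having 100 counts in the early lesion, whose median in the tumor was -0.29. Of these, 41.7% of the 688 membrane-type genes and 40.8% of the 267 secreted-type genes were called higher, against 4.02% of the 2637 genes of neither class. Their median log2 ratios were 0.66, 0.54 and -0.40 in the sum reading, 0.59, 0.54 and -0.29 in the small-count reading and 0.63, 0.65 and -0.38 with equal weights. Among the 1452 genes higher in all 3 readings 54.7% of those with a reading frame were membrane-type, against 24.5% of all genes tested.

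In the sum reading the ratio was mostly higher for longer proteins. Secreted-type genes under 250 residues had a median log2 ratio of -0.06 over 111 genes, those of 250 to under 400 residues 0.99 over 70, those of 400 to under 600 residues 1.83 over 59 and those of 600 to under 1000 residues 2.11 over 24. Membrane-type genes went from 0.25 over 222 genes under 250 residues to 1.18 over 127 genes of 400 to under 600, 0.73 over 93 of 600 to under 1000 and 1.31 over 31 longer ones. Genes of neither class went from -0.52 over 1054 genes under 250 residues to 0.18 over 292 of 600 to under 1000 and 0.75 over 86 of 1000 or more. With equal weights the medians of membrane-type genes were 0.23, 0.80, 1.06, 0.82 and 0.57 from the shortest to the longest group, and those of secreted-type genes were -0.03, 0.97, 1.57 and 1.39 up to under 1000 residues, so there the rise ended at 400 to under 600 residues. In every length group that had at least 20 genes in each class, membrane-type and secreted-type genes had a higher median than genes of neither class. Counting here is at the 3' end of the RNA, and whether length, RNA capture or anything else that moves with length takes part was not tested.

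**Figure D3:**
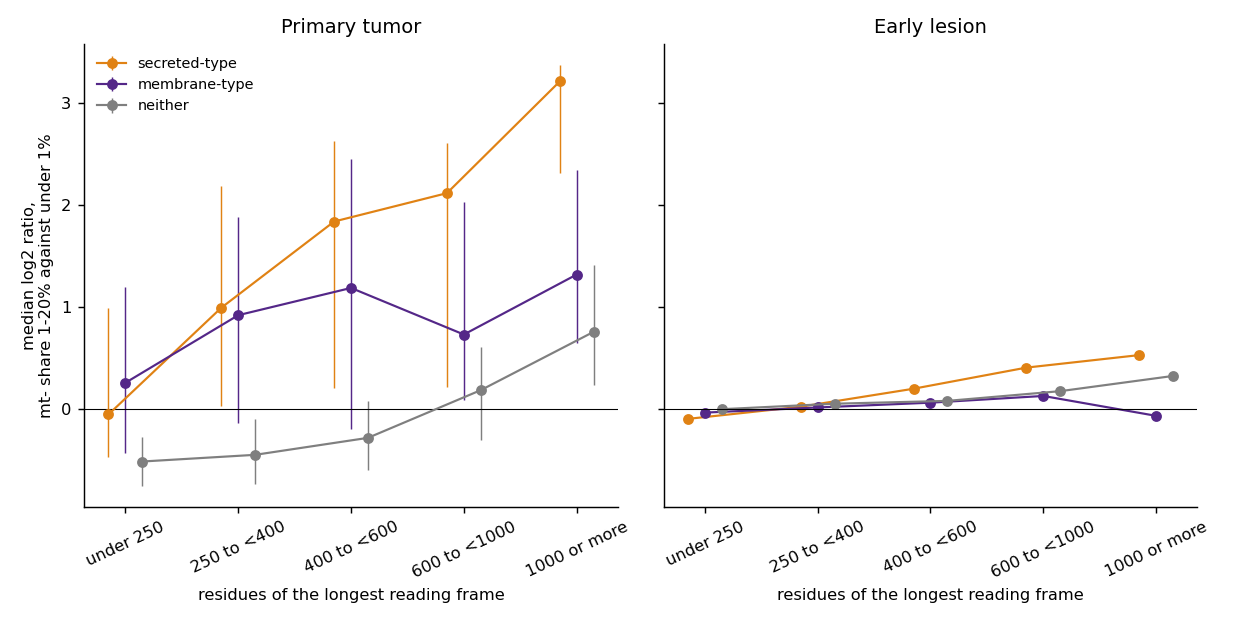
Median log2 ratio (y axis) of mitochondria-bearing over mitochondria-poor cells by protein length in residues (x axis) and protein class, for the 3662 genes with at least 100 counts in the early lesion; bars in the tumor panel span the 25th to 75th percentile of genes, and the group of secreted-type genes of 1000 or more residues holds 3 genes. Tumor medians of secreted-type genes go from -0.06 to 2.11 between under 250 and 600 to under 1000 residues, while in the early lesion the same split gives -0.10 to 0.40.

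Among secretory products, the genes of the milk and secreted list (32, of which 18 passed the count minimum) gave 12 higher and 1 lower in the sum reading, with a median log2 ratio of 1.57 against 0.13 over all genes tested. Trf, the iron carrier of milk and blood, stood at 26511 CPM in mitochondria-bearing and 5297 CPM in mitochondria-poor cells, a log2 ratio of 2.32 (2.27 to 2.37) and 2.5 in the small-count reading. Igfbp5, a secreted binding protein for insulin-like growth factors, stood at 1472 and 111 CPM (3.71), and Mfge8, a milk fat globule protein, at 775 and 104 CPM (2.88). Lcn2, which binds bacterial iron carriers, stood at 6134 and 1628 CPM (1.91), and the caseins Csn1s1 and Csn3 had log2 ratios of 1.46 and 1.08.

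Some other abundant secretory messengers were not called. Wfdc18, the most abundant of the list, stood at 37795 and 39104 CPM, a log2 ratio of -0.05 (-0.07 to -0.03), although its reading frame above holds a hydrophobic stretch as that of Trf does. Csn1s2a stood at 3585 and 3954 CPM (-0.14). The lactose synthase subunit Lalba had 0.48 in the sum reading and 0.97 in the small-count reading. Csn2, beta-casein, was the 1 lower member at 30.6 and 120 CPM (-1.96). Without its 1 cell over 10000 UMIs the mitochondria-poor class kept 39 of its 85 Csn2 counts. With the large-count mitochondria-bearing cells left out as well, as in the small-count reading, the log2 ratio was 0.37.

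Of the serous gland list (22 genes in the file, 9 passed), Aqp5 and the ion transporters of fluid-secreting epithelium were higher. Aqp5 stood at 5520 CPM against 775 CPM (log2 ratio 2.83, interval 2.71 to 2.96), and ranged from 940 to 10707 CPM over the large-count cells. In the small-count and equal-weight readings its log2 ratios were 3.0 and 2.90. Slc12a2 (the sodium, potassium and chloride importer), Ano1 (a chloride channel) and Kcnn4 (a potassium channel) had log2 ratios of 4.43, 3.34 and 2.99. Car6 had 2.57 in the sum, 3.81 in the small-count and 3.49 in the equal-weight reading, and in the small-count cells 53.5% of its 101 counts lay in 3 cells. Car2, the cytosolic carbonic anhydrase, stood at 239 and 457 CPM (-0.93).

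Collagens of the cartilage type were higher. Col9a1 stood at 1516 and 222 CPM (2.77, interval 2.54 to 3.02), and Col9a2 and Col9a3, which pair with it in collagen IX, at 217 and 12.7 CPM (4.02) and at 81.3 and 5.64 CPM (3.69). Col11a1 stood at 301 and 9.88 CPM (4.83, interval 3.87 to 6.26, 7 counts in the mitochondria-poor class) and was found in 17 of 17 large-count cells, 14 of 107 small-count cells and 7 of 301 mitochondria-poor cells. The cartilage regulator Sox9 stood at 114 and 63.5 CPM (0.83). Of the 13 list genes 7 passed the count minimum, 5 higher and 0 lower, with a median of 2.77. Of the 7, 2 had 20 counts in the mitochondria-poor class, so the others passed through the mitochondria-bearing class.

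To set cells of unlike depth side by side, every cell was thinned to 400 UMIs, which left out none of the 124 or the 301. An Aqp5 UMI was then found in 66.1% of mitochondria-bearing cells (57.1% to 74.4%) and 26.6% of mitochondria-poor cells (21.7% to 31.9%). For Car6 the shares were 17.7% and 1.99%, for Col9a1 33.9% and 7.97%, for Col11a1 8.06% and 0.997%, and for Epcam 49.2% and 11.3%. Unthinned, Aqp5 was found in 79.8% of mitochondria-bearing cells. Early lung cells, sorted by the same gate from another organ and thinned alike, had 9.19% for Aqp5, 0.541% for Col9a1, 1.08% for Epcam, and 0 of 185 for Car6 and Col11a1 (exact interval up to 1.97%). Those cells are labelled breast cancer cells, so whether they lack these genes is not known. The median depths before thinning were 925.5 UMIs (mitochondria-bearing), 2011 (mitochondria-poor) and 761 (early lung), mt- genes left out.

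Among surface proteins of epithelium, 28 of 29 members that passed were called higher and 0 lower, with medians of 2.52 in the sum, 2.58 in the small-count (14 members) and 2.54 in the equal-weight reading. Epcam, the epithelial adhesion molecule, stood at 2734 and 380 CPM (2.85, interval 2.67 to 3.03), and in the large-count cells it ranged from 1237 to 4225 CPM. The tetraspanins Cd9 and Cd81 had 2.52 and 2.21, the tight-junction claudins Cldn3, Cldn4 and Cldn7 had 2.31, 3.01 and 2.27, and E-cadherin (Cdh1) had 3.47. The 1 exception was Cd24a, a very short surface protein held by a lipid anchor, at 304 and 310 CPM (-0.03). Prss8, a membrane-anchored protease, had 1.57 in the sum reading and 0 counts in the small-count cells. Only 11 of the 29 had 20 counts in the mitochondria-poor class, so most members passed through the mitochondria-bearing class, and of the 21 chosen by early lesion counts the median was 2.32.

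Genes of the machinery that receives those proteins were mostly higher. Of 40 genes of ER translocation, folding and secretion, 40 passed, 29 were called higher and 0 lower, with medians of 1.78, 1.71 and 1.57 in the 3 readings. Hspa5 stood at 721 and 63.5 CPM (3.49, interval 3.07 to 3.97) and Hsp90b1 (Grp94, an ER chaperone) at 759 and 62.1 CPM (3.60). Calr, Pdia4 and Ddost, a chaperone, a disulfide isomerase and a subunit of the sugar-transferring complex, had 3.08, 3.67 and 3.08. The short subunits of the protein channel, Sec61b and Sec61g, stood at 479 and 622 CPM (-0.38) and at 552 and 869 CPM (-0.66), while its long subunit Sec61a1 had 1.81 in the sum and 0.45 in the small-count reading. Of 14 milk lipid genes that passed, 11 were higher and 0 lower (median 2.21). Over all genes tested 27.2% were called higher, with a median of 0.13. Only 6 of the 14 had 20 counts in the mitochondria-poor class, so the others passed through the mitochondria-bearing class. In the small-count reading 4 of 8 were higher (median 1.34), against 9.56% of genes tested. Of 10 chosen by early lesion counts 6 were higher (median 1.42), against 13.9% of all genes so chosen. Srebf1, the ER-bound lipid regulator, stood at 1006 and 94.5 CPM (3.40), and Plin2, which coats lipid droplets from the cytosol, at 573 and 745 CPM (-0.38).

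The 12 genes highest in all 3 readings included Ogt, Ptprg, Cyba, Ltbp3, Glb1, Gaa, Erbb3, Cdcp1, Myo6, Nucb1 and Crispld2. Of the 12, 9 were membrane-type or secreted-type, including the lysosomal enzymes Glb1 and Gaa and the membrane subunit Cyba of the superoxide-producing oxidase. Of all genes tested with a reading frame, 24.5% were membrane-type and 6.80% secreted-type. Those of neither class included Ogt, a sugar transferase of nucleus and cytosol, and Myo6, a myosin motor. All 12 had 0 to 5 counts in the mitochondria-poor class, so each passed the count minimum through the mitochondria-bearing class. Most of the 12 did not pass that minimum in the small-count reading. Crispld2 stood at 175 counts against 5 (log2 ratio 4.44, interval 3.32 to 6.21) and Cyba at 69 against 1 (4.97, 3.02 to 10.87). Ptprg, a receptor phosphatase, stood at 55 against 0, at least 12.4-fold higher against a floor of 3 counts.

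Nuclear-retained RNAs had the highest median of the 20 lists in the sum reading, but they split the class. Of 8 such RNAs in the file 4 passed, and all 4 were called higher (median log2 ratio 5.21): Malat1 stood at 7268 and 241 CPM (4.91), Xist at 1579 and 29.6 CPM (5.70), Kcnq1ot1 at 226 and 4.23 CPM and Neat1 at 270 and 19.8 CPM (3.72). Kcnq1ot1 had 3 counts in the mitochondria-poor class, for a log2 ratio of 5.52 (4.17 to 8.02). Each of the 17 large-count cells held all 4, with 102 to 699 Malat1 UMIs and 2591 to 48677 CPM.

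In the small-count cells the same RNAs lay in 3 cells. Those 3, with mt- shares of 10.9% to 19.7%, held 101 to 225 Malat1 UMIs each, 535 of the 566 Malat1 UMIs and 48 of the 51 Xist UMIs of the 107 cells. The other 104 held at most 3 Malat1 UMIs each, 31 in all, or 282 CPM. Among mitochondria-poor cells 4 of 301 held 122 of 171 Malat1 UMIs, and the other 297 were at 71.1 CPM. The log2 ratios of Malat1 in the small-count reading (4.72) and with equal weights (4.13) therefore rest on these few cells. The 104 cells still had medians of 17.0% membrane-type, 16.6% secreted-type and 18.5% ribosomal protein UMIs, against 9.87%, 9.75% and 25.2% in the 297 mitochondria-poor cells. The membrane and secretory difference was present in these 104 cells, which were chosen for few Malat1 UMIs. They still held more nuclear RNA than the 297, at 282 against 71.1 CPM of Malat1 and 345 against 113 CPM of the 4 RNAs together. Free RNA held Malat1 at 1947 CPM, above both sets.

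**Figure D4:**
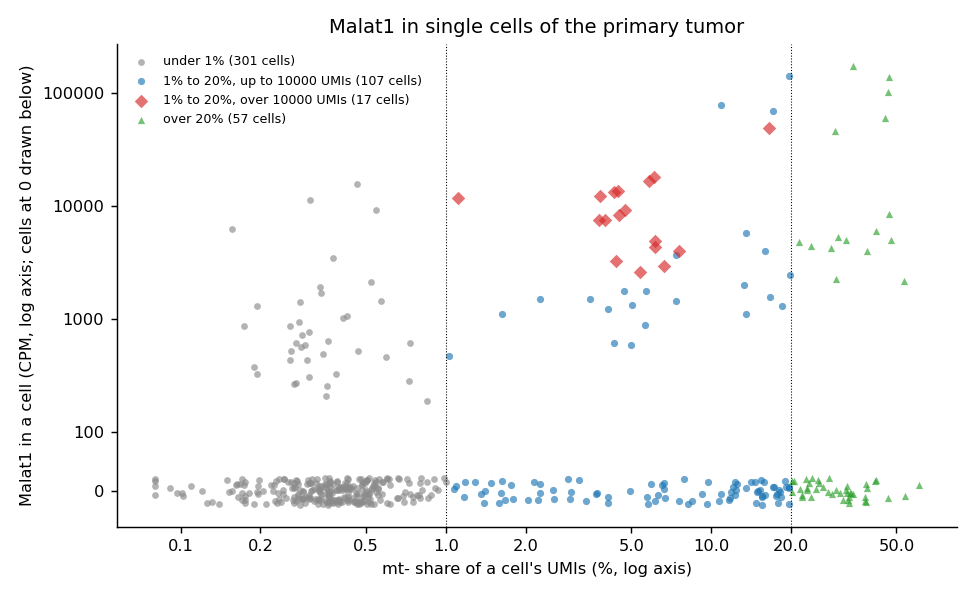
Malat1 in each primary tumor barcode (y axis, CPM, log axis; barcodes with 0 UMIs drawn in a band at the bottom) against the percentage of UMIs from mt- genes (x axis, log axis). All 17 cells over 10000 UMIs lie between 2591 and 48677 CPM, and 3 of the 107 smaller cells between 1% and 20% stand far above the rest.

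The large-count cells were set against the 104 small-count cells to see what else came with the nuclear RNAs. Of 6006 genes tested, 243 (4.05%) were called higher in the large-count cells and 176 (2.93%) lower. Membrane-type, secreted-type and other genes had medians of 0.06, 0.00 and -0.06, so the protein classes hardly differed between these sets. Ranked by the lower end of the interval, the highest were Xist, Malat1, Kcnq1ot1, Nf1, Erdr1, Auts2 and Ogt, a list chosen after its values were seen. The 104 cells had been chosen for few Malat1 UMIs, and the 3 cells left out held most of the Xist, so the place of Malat1 and Xist in that order was set by the choice of cells. Leaving those 3 out also took small-count Kcnq1ot1 from 5 counts to 0, Ogt from 9 to 2 and Nf1 from 19 to 10. Their place in the order therefore depends on that choice too. Lower in the large-count cells were the metallothioneins Mt1 (280 against 1190 CPM, log2 ratio -2.09) and Mt2 (29.0 against 291 CPM, -3.32) and Car6 (301 against 918 CPM, -1.61). Speckle and splicing-factor genes, whose messengers are known to linger in the nucleus, had 10 of 21 called higher and 0 lower in the sum reading (median 0.96) and 3 of 19 in the small-count reading (median 0.53). At least 2-fold higher in all 3 readings were 5 of the 21 (23.8%), near the 19.5% of all genes tested. Son, a speckle scaffold, stood at 372 and 52.2 CPM (2.82) and had 1.91 in the small-count reading.

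In the sum reading of the signalling lists the ERBB receptors Erbb2, Erbb3 and Egfr were called higher, while most relays between receptor and nucleus were not called. Of the 38 ERBB, Ras and ERK genes 29 passed, 9 higher and 0 lower in the sum reading (median 0.35), and in the small-count reading 0 of 17 were higher and 1 lower (median -0.02). The 9 of 29 is near the 27.2% of all genes tested that were called higher in the sum reading. The 9 were the receptors Erbb2, Erbb3 and Egfr, the relays Hras (1.02) and Pik3ca (2.19), the inhibitors Spred1 (1.02), Rasa1 (1.16) and Nf1, and the factor Etv1. Erbb3 stood at 81.3 and 2.82 CPM, with 85 counts against 2 (log2 ratio 4.54, interval 2.95 to 7.92) and 4.79 in the small-count reading. Erbb2 stood at 74.6 and 12.7 CPM (2.49, interval 1.56 to 3.74) and Egfr at 32.5 and 5.64 CPM (2.38), on 5 and 2 counts in the small-count cells. Whether reads of the transgene were counted under Erbb2 is not given in the sources used here.

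Downstream, the ERK phosphatase Dusp6 stood at 280 and 336 CPM (-0.26) and the ETS factor Etv5 at 134 and 152 CPM (-0.19), and the interval of Etv5 included a ratio of 1. The Ras inhibitor Nf1 was called higher in the sum reading at 1075 and 200 CPM (2.42), but 98.3% of its 1124 counts came from the large-count cells. It stood at 164 and 198 CPM in the small-count reading (-0.24, interval -1.05 to 0.42, which includes a ratio of 1), had 0.52 with equal weights, and free RNA held it at 695 CPM. Etv1 likewise had 1.47 in the sum and -0.08 in the small-count reading. Rasa1 had -0.22 there, on 2 counts in the small-count cells.

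Among hormone and developmental signalling genes the receptors had the highest ratios in the sum reading. Prlr, the prolactin receptor, stood at 79.4 and 8.47 CPM (3.12, interval 2.05 to 4.72), but 95.2% of its 83 counts came from the large-count cells. In the small-count reading it had 4 counts against 6 (2.06, interval -0.27 to 4.08, which includes a ratio of 1). Stat5a stood at 67.9 and 45.2 CPM (0.58) and the luminal factor Elf5 at 150 and 320 CPM (-1.09, and -0.75 under median-of-ratios scaling, no longer 2-fold). Of 27 Wnt, TGF-beta and Notch genes 13 passed, 8 higher and 0 lower (median 1.41), but 4 of the 13 had 20 counts in the mitochondria-poor class, and at a count minimum of 100 the median was -0.10. The receptors Lgr4 (38 counts against 2, interval 1.73 to 6.78), Tgfbr2 (55 against 3, 2.01 to 5.96) and Notch1 (45 against 4, 1.48 to 4.87) had log2 ratios of 3.38, 3.43 and 2.78, and the cytosolic and nuclear proteins Smad3, Tcf7l2, Smad4 and Ctnnb1 (beta-catenin) 1.76, 1.97, 1.41 and 1.14. The nuclear proteins Hey1 and Id2 had -0.51 and -0.37. Lgr4, Tgfbr2 and Notch1 passed the count minimum through the mitochondria-bearing class. In the small-count reading 1 of 4 members that passed was higher. Neither Tgfbr2 nor Lgr4 passed there. Tgfbr2 had 3 counts against 3 (2.59, interval -0.31 to 5.49, which includes a ratio of 1) and Lgr4 5 against 2 (3.72, 1.30 to 7.30). Immediate early genes had 3 of 12 higher and 0 lower (median 0.65), and cytosolic heat shock genes 3 of 10 higher and 0 lower (median 0.26). Both are near the 27.2% of all genes tested that were called higher in the sum reading.

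Genes for cytosolic and mitochondrial housekeeping were slightly lower together, by less than the 2-fold limit. Ribosomal protein genes had a median of -0.41 over 84 members with 0 called higher and 4 lower, nuclear-encoded respiratory chain genes -0.40 over 85 with 0 higher and 4 lower, and mitochondrial ribosome and import genes -0.50 over 97 with 0 higher and 4 lower. Under median-of-ratios scaling these medians were -0.07, -0.06 and -0.16. Mitochondrial chaperones and proteases had 2 of 12 higher and 0 lower (0.03). Glycolysis and hypoxia genes had 3 of 22 higher and 1 lower (-0.52, but 0.02 with equal weights), and the higher ones included the membrane glucose transporter Slc2a1 (2.08). Cell death genes had 2 of 17 higher and 4 lower (-0.51). Over all genes tested 27.2% were called higher and 5.09% lower in the sum reading. Each of these lists had a smaller part called higher, and cell death genes alone had a larger part called lower.

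S phase and mitosis genes were the list with most lower calls, 9 of 23, with 3 higher (median -0.54, -1.26 in the small-count and -0.96 in the equal-weight reading). Over all genes tested 5.09% were called lower and 27.2% higher in the sum reading. In the small-count reading 9 of 19 members were lower, against 4.27% of genes tested. Ube2c, which helps to end mitosis, stood at 54.5 and 214 CPM (-1.97), Birc5 at 38.3 and 138 CPM (-1.84) and Cdk1 at 45.9 and 117 CPM (-1.34). In the small-count cells these 3 had 7, 3 and 3 counts, and Ccna2 and Ccnb2 had 1 each. Of the 17 large-count cells 8, 6 and 5 held Ube2c, Birc5 and Cdk1, and 1 cell held 45.6%, 35% and 35.4% of the class's counts of each. Mcm3, Mki67 and Top2a were the 3 higher, at 1.86, 1.45 and 1.41 in the sum and 0.71, 0.44 and 0.35 in the small-count reading, on 1 to 3 counts each. The 12 lowest genes in all 3 readings were Rbp7, Nusap1, Ube2c, Ccnb2, Cdkn1c, Syap1, Ccna2, Asf1a, Decr1, Hprt, Cdk1 and Birc5. Of these, 11 were of neither protein class, to which 68.7% of all genes tested with a reading frame belonged.

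The early lesion, split by the same rule in a library that did not choose the members, held 71 mitochondria-bearing and 1014 mitochondria-poor cells. Over 8080 genes 428 (5.3%) were called higher and 63 (0.78%) lower. Membrane-type genes gave a median of 12% of UMIs per cell against 10.9%, and secreted-type genes 18.2% against 20.8%. The surface list had a median log2 ratio of 0.02 with 3 of 25 higher, the ER list -0.07 with 0 of 39 higher, and the milk and secreted list -0.16 with 0 of 17 higher, counting members tested in both libraries. Epcam stood at 893 and 897 CPM there, Hspa5 at 169 and 228 CPM, and Aqp5 at 11.7 and 24.6 CPM. Nuclear-retained RNAs were higher in the lesion as in the tumor: 3 of 3 were called, with Malat1 at 9865 and 376 CPM (4.71) and Xist at 473 and 13.7 CPM (5.11).

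Of 6729 genes tested in both libraries, 132 were higher in both, which is 11.7% of the 1128 of them higher in the tumor in all 3 readings and 39.8% of the 332 higher in the lesion, while over all 6729 genes 4.93% were higher in the lesion and 16.8% in the tumor. The lesion's mitochondria-bearing cells also held markers of other cell types: 9 fibroblast markers summed to 1804 CPM against 5.58 CPM, with a UMI in 7 of the 71 cells, basal markers to 940 against 382 CPM, adipocyte markers to 782 against 50.8 CPM in 9 of the 71 cells, and pericyte markers to 333 against 11.4 CPM. The luminal list stood at 24002 and 28516 CPM. What part these cells have in the lesion's values was not tested, and the difference between tumor and lesion was not tested either, since each is 1 library.

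**Figure D5:**
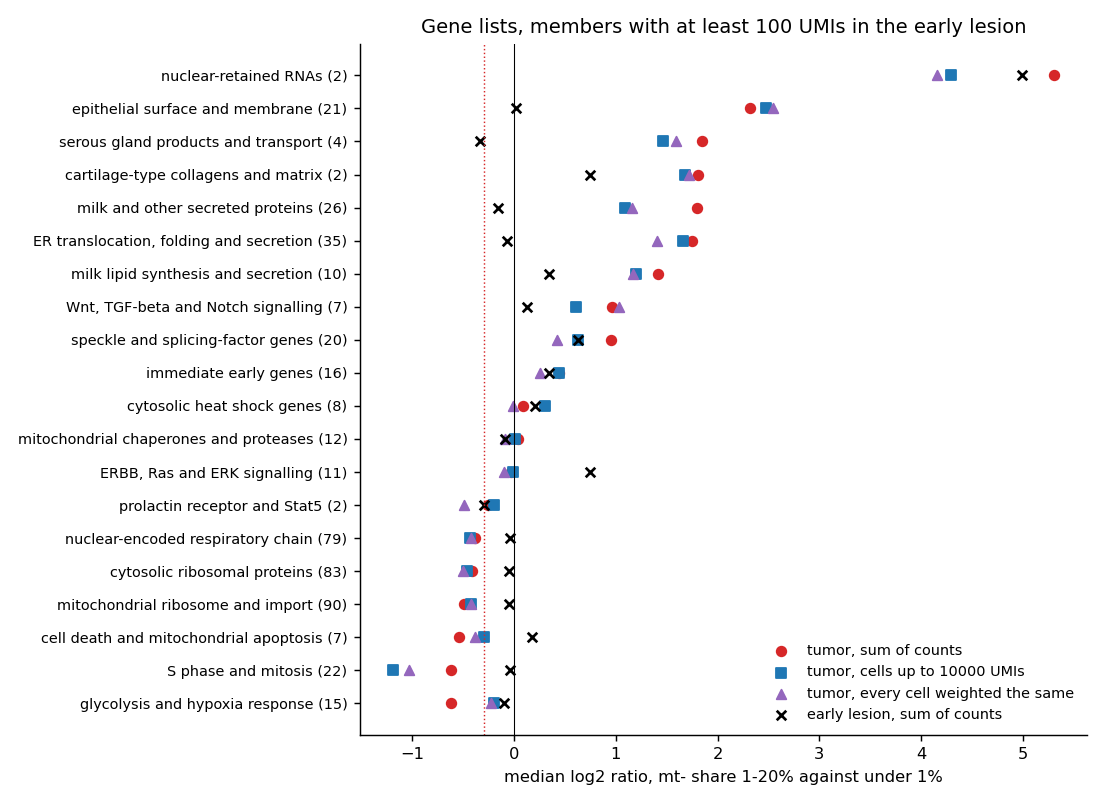
Median log2 ratio (x axis) of mitochondria-bearing over mitochondria-poor cells for each gene list (y axis; in brackets the members with at least 100 counts in the early lesion, over which the 3 tumor readings are given; the lesion value is over members tested in both libraries). The dotted line is the tumor median of all such genes, -0.29; the surface list stands at 2.32, 2.48 and 2.54 in the tumor and at 0.02 in the lesion.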

How the data were processed

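The deposited files hold counts: whole-number UMI counts per gene (27998) and barcode (737280) for each of 4 libraries, not normalized, as the values show. Per the submitters' processing notes the build was mm10, and the aligner, counter and annotation are not given in the sources used here. Library totals, read from the counts, were 743765 (early lung), 1070236 (late lung), 6366768 (early lesion) and 3403140 UMIs (primary tumor).

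The members and all gene lists were chosen with earlier results of these data known. The UMI minimum was 500, or 0.1 times percentile 99 among the 3000 largest barcode totals where that was more (500, 500, 911 and 534). Doublets were kept and no caller was run. The values without cells over 10000 UMIs stand beside the others. Log2 ratios add 0.5 counts to each sum, except that values for genes chosen by early lesion counts add 0.5 counts on average in proportion to the totals. Equal-weight ratios add 1 CPM. Ratio intervals are exact conditional-binomial (95%), and shares have exact Clopper-Pearson intervals. No test, p-value or SE was computed, since each group is 1 library.

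Named genes were the 12 highest and 12 lowest at 50 CPM or more that were at least 2-fold to the same side in all 3 readings, ranked by the smallest of their 3 log2 ratios, without ribosomal protein, predicted and pseudogene entries. To these came at most 4 genes from each list, ranked likewise, and 10 fixed genes, and members that go against their list were named after their values were seen. Some genes that the rule names are not reported here. The split of cells at over 10 Malat1 UMIs, the comparison of large-count with small-count cells, the counts of cells beyond a percentile of the mitochondria-poor cells and the genes chosen by lesion counts were set after seeing the data. Hydropathy was computed from the longest complete reading frame of 21214 genes in GENCODE M21. It can class a protein wrongly, as for the cytosolic Nf1. Of the other marker lists, summed CPM in large-count, small-count and mitochondria-poor cells were 38.7, 43.1 and 60.7 (endothelial), 22.6, 8.63 and 1.41 (pericyte), 10.8, 8.63 and 2.82 (adipocyte), 4.30, 8.63 and 2.82 (erythroid), and 363, 224 and 251 (Schwann, mostly Sox10, which mammary cells also express). The ratio code was tested on simulated counts. Python 3.11.15, numpy 2.4.6, scipy 1.17.1, pandas 2.3.3 and matplotlib 3.10.9 were used.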

Additional observations from a re-analysis of the deposited data

Results flagged for a closer look

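Rbp7, a binding protein for retinol, differed in direction between tumor and early lesion under the same split. In the tumor it stood at 32 counts against 96 (30.6 against 135 CPM, log2 ratio -2.13, and -2.62 and -3.26 in the small-count and equal-weight readings), and 1 of 107 small-count cells held it. In the early lesion it was higher in mitochondria-bearing cells, at 7 counts against 22 (log2 ratio 2.8, or 40.9 against 6.14 CPM). Adipocyte markers stood at 782 against 50.8 CPM and fibroblast markers at 1804 against 5.58 CPM in the same lesion cells, and their part in the value was not tested. The difference was not tested, and the lesion value rests on few counts.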

How the results depend on the processing

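No paired analysis was possible because each group is 1 library and the groups share only the number 1. Counts of genes called (in all, higher, lower) against 2407, 2028 and 379 were 586, 405 and 181 without cells over 10000 UMIs, 579, 441 and 138 at a count minimum of 100, and 317, 208 and 109 with both classes under 2000 UMIs, where 4237, 2469 and 1896 genes could be tested. They were 1266, 569 and 697 with every cell weighted the same and the large cells left out. Genes chosen by early lesion counts gave 767 in all and 508 higher. Lower calls were 1075 with equal weights, 223 with the split at 0.5% and 88 under median-of-ratios scaling. Equal weights gave 2362 calls in the early lesion against 491. The choice of lesion genes, the 2000 UMI limit and the added counts in proportion were set after seeing the data.

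Nf1 changed direction without cells over 10000 UMIs (-0.24), with every cell weighted the same and those cells left out (-0.25), and with both classes under 2000 UMIs (-0.18). The Wnt, TGF-beta and Notch median was -0.10 at a count minimum of 100. Shares of mitochondria-bearing cells with a UMI were, thinned to 1000 UMIs, 79.3% (Aqp5), 48.3% (Col9a1) and 46.6% (Malat1), and without thinning 79.8% (Aqp5), 34.7% (Car6), 58.1% (Col9a1), 25% (Col11a1) and 32.3% (Malat1). The cause of these changes was not tested, except that fewer genes or cells enter under the stricter minima.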
